A study of Mus musculus with 12 samples.

Results

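The 39 genes described here encode proteins that copy DNA and divide chromosomes. Of these, 17 act in DNA replication and the entry into it, and 22 act in mitosis. They were chosen by name, with earlier results of these data known, and all 39 were found among the 43432 genes of the count table. All 39 had enough counts to be tested, Ccne1 and Ccnb1 only because of their counts in small intestine IL-25- cells.

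The libraries came from epithelium of Flare25 mice, which report transcription of the cytokine gene Il25 with a red fluorescent protein, so IL-25+ cells are cells of the reporter's red gate. In the gut this gate marks mostly tuft cells, rare chemosensory cells of the epithelium. Live single cells carrying EpCAM, an epithelial surface protein, were sorted from 2 tissues into 4 groups of 3 libraries: gallbladder IL-25+ (GB IL-25+), gallbladder IL-25- (GB IL-25-), proximal small intestine IL-25+ (SI IL-25+) and proximal small intestine IL-25- (SI IL-25-). IL-25- cells are all other EpCAM+ cells of the tissue, a mixture of types. All groups carry the reporter allele, and no label gives the age of the mice. All 6 gallbladder libraries are labelled as from mice given HDM AF647 1 day earlier, no small intestine library has that label, and another label of all 12 says homeostasis. Tissue and that treatment label therefore cannot be told apart. Whether the 3 libraries of a group are separate animals is not given in the labels, so each p-value covers only the spread among these libraries.

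Cells that divide first load a ring-shaped helicase, the MCM complex, onto replication origins in G1 phase. Cyclin-dependent kinases (CDKs) then start it, polymerases copy DNA with nucleotides made by ribonucleotide reductase and thymidylate synthase, and later CDK1 with cyclin B drives mitosis. Mitosis ends when the ubiquitin ligase APC/C has cyclin B and other proteins destroyed. In intestinal epithelium division takes place in the crypts, where stem cells and their transit-amplifying daughters cycle continuously, while gallbladder epithelium renews slowly. Most of these transcripts rise and fall with the cell cycle, so in a bulk library their level depends on how many cells are cycling. In bulk libraries, fewer cycling cells and less RNA per cell cannot be told apart.

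Values are CPM, counts per 1000000 counts of the effective (TMM-scaled) library size, and log2 fold changes are given as estimate ± SE from edgeR's quasi-likelihood test over 16636 genes. A change was called at a Benjamini-Hochberg adjusted p under 0.05. Totals ran from 23703449 to 64736650 counts per library. Summed over 12 tuft markers, IL-25+ libraries held 23900 to 25500 CPM in gallbladder and 33400 to 40600 CPM in small intestine, and IL-25- libraries held 46.8 to 177 CPM and 96.9 to 271 CPM in the same tissues. T cell and intraepithelial lymphocyte markers (8 genes) summed to 0.0808 to 1.11 CPM in GB IL-25+, 0.065 to 1.36 CPM in GB IL-25-, 3.25 to 54.1 CPM in SI IL-25+ and 4.48 to 60.6 CPM in SI IL-25- libraries. Crypt stem cell markers (7 genes) summed to 1180 to 1660 CPM in GB IL-25+, 197 to 309 CPM in GB IL-25-, 961 to 1140 CPM in SI IL-25+ and 802 to 2520 CPM in SI IL-25- libraries. Sox9 took most of the IL-25+ sums, at 1003 to 1469 CPM in gallbladder and 841 to 1103 CPM in small intestine. Olfm4, Smoc2, Axin2 and Rnf43 were lower in every SI IL-25+ than in every SI IL-25- library. Olfm4 was also lower in GB IL-25+ than in GB IL-25- libraries, while Lgr5 and Ascl2 were higher there. The part of either list in the results was not tested. Mitochondrial genes took 7.135 to 8.83% of counts in GB IL-25+, 11.2 to 25.0% in GB IL-25-, 12.1 to 17.2% in SI IL-25+ and 26.6 to 34.9% in SI IL-25- libraries, so their share was lower in IL-25+ cells of each tissue, as most of the 39 genes were; its part was not tested. Cd3d, Cd3g and Trac were at 0 in GB IL-25+ libraries, and Trac was at 0 in GB IL-25- libraries.

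SI IL-25- cells had the highest mean for 38 of the 39 genes, and GB IL-25+ cells the lowest for 34. The exception at the top was Ccne2, which was highest in SI IL-25+ cells. The 17 replication genes together took 96.3, 85.7 and 74.1 CPM in GB IL-25+ libraries 1 to 3 and 184, 160.2 and 158 CPM in GB IL-25- libraries. They took 131, 98.7 and 112 CPM in SI IL-25+ libraries and 558.5, 267 and 465 CPM in SI IL-25- libraries. Replication sums did not overlap between any of the groups. The 22 mitosis genes took 71.2, 71.0 and 19.3 CPM in GB IL-25+ libraries and 192, 101 and 89.4 CPM in GB IL-25- libraries. They took 369, 163 and 203 CPM in SI IL-25+ libraries and 1440, 842.5 and 1703 CPM in SI IL-25- libraries. Mitosis sums did not overlap between gates within a tissue, while SI IL-25+ 2 lay below GB IL-25- 1.

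The balance between the sides differed by tissue. Mitosis sums were 0.74, 0.828 and 0.26 times the replication sums in GB IL-25+ libraries and 1.04, 0.631 and 0.566 times in GB IL-25- libraries. In the small intestine they were 2.82, 1.65 and 1.81 times the replication sums in IL-25+ libraries and 2.58, 3.16 and 3.66 times in IL-25- libraries. Every small intestine library had a higher ratio than every gallbladder library. The mean mitosis sum of GB IL-25- cells was 0.0961 of that of SI IL-25- cells, and the mean replication sum was 0.389 of it. Among IL-25+ cells these gallbladder fractions were 0.22 for mitosis and 0.749 for replication. These sums carry no test, and genes with many reads dominate them.

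**Figure D1:**
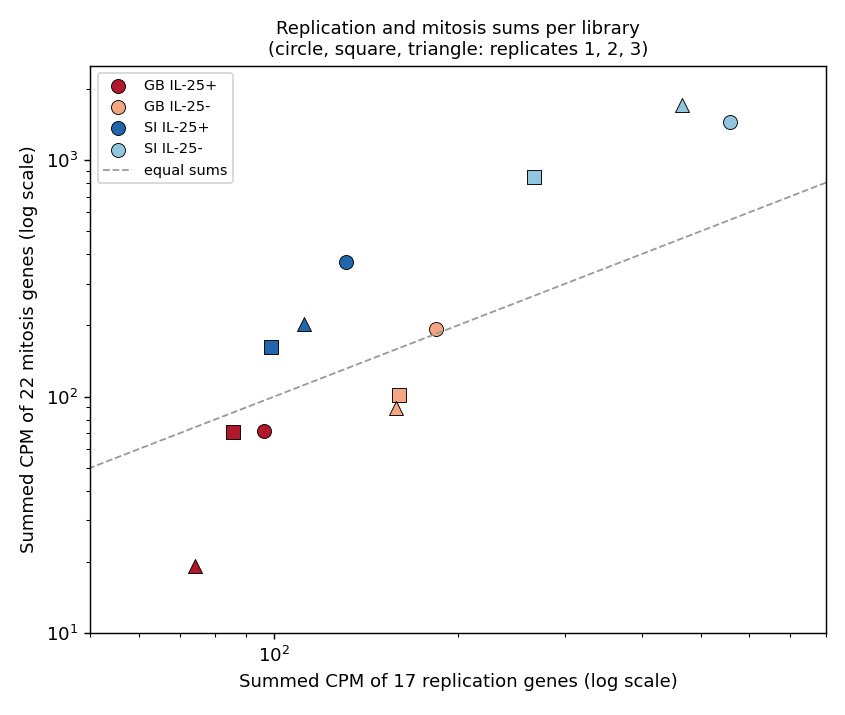
Summed CPM of the 22 mitosis genes (vertical, log scale) against that of the 17 replication genes (horizontal, log scale), one point per library, coloured by group, with the line of equal sums. All 6 small intestine libraries lie above the line, and 5 of the 6 gallbladder libraries lie below it, the other being GB IL-25- 1 at a ratio of 1.04.

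Levels of different genes can be compared only per length, here as mean CPM per kilobase of exon. On that scale Pcna led in GB IL-25+ (10.1), GB IL-25- (14.8) and SI IL-25+ cells (12.6). Pcna (ENSMUSG00000027342, chromosome 2) encodes the clamp that holds polymerases on DNA and also serves DNA repair. In SI IL-25- cells Mki67 led at 39, ahead of Ccnb2 at 35.4, Ube2c at 31.5, Plk1 at 24.2 and Top2a at 22.1, and Pcna followed at 18.6.

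Single libraries stood apart within groups. SI IL-25- 2 was the lowest of its group for 37 of 39 genes, GB IL-25+ 3 was the lowest of its group for 26, and GB IL-25- 1 was the highest of its group for 29. SI IL-25+ 1 was the highest of its group for 26 genes. SI IL-25- 2 also held the most goblet cell transcripts, 58800 CPM over 6 markers, against 4000 CPM in SI IL-25- 3, the lowest of the group. GB IL-25- 1 held intestinal transcripts: 8 enterocyte markers had a median of 5.41% of their level in SI IL-25- 3 there and at most 0.16% in the other 5 gallbladder libraries. The 22 mitosis genes had a median of 8.92% of their SI IL-25- 3 level in GB IL-25- 1, 3.88% in GB IL-25- 2 and 1.74% in GB IL-25- 3. For the 17 replication genes these medians were 33.4%, 28.2% and 21.8%. The part of those transcripts in the results was not tested.

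**Figure D2:**
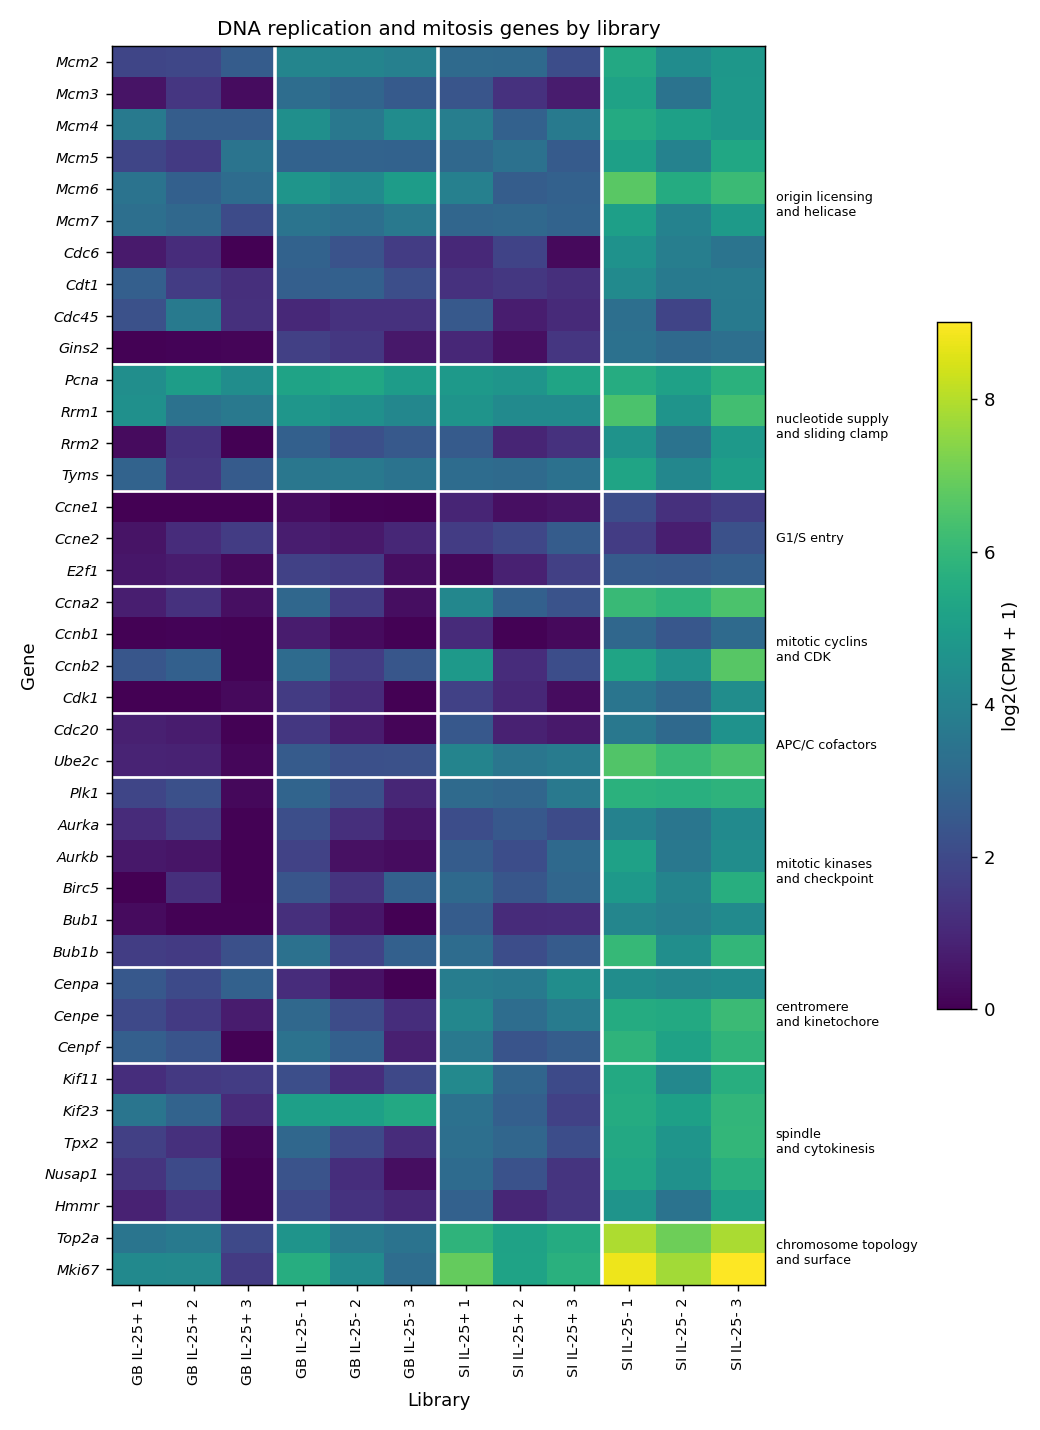
Level of each gene (rows, grouped by role) in each library (columns, grouped by tissue and gate) as log2(CPM + 1), from dark at 0 to yellow. The 3 SI IL-25- columns are brightest in most rows, with exceptions such as Pcna, Rrm1 and Kif23 in SI IL-25- 2, and GB IL-25+ 3 is the darkest column, with 6 genes at 0 counts.

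Promoter sequences are shown for genes with high levels on each side, because replication and mitosis genes are known for different control elements. E2F factors, which are released when CDKs phosphorylate the retinoblastoma protein, bind GC-rich letters in replication promoters. Mitosis promoters often carry the CHR element, bound by the MuvB complexes, and CCAAT boxes, bound by NF-Y. RefSeq windows of the GRCm38.p6 build, 250 bases before to 50 after each start, matched 33 of the 39 genes. Aurkb, Ccna2, Ccne2, Gins2, Mcm4 and Tpx2 had no entry. Both strands were searched for TTTGAA (CHR), for TTTCCCGC, TTTCGCGC, TTTGCCGC and TTTGGCGC (E2F), and for CCAAT. The 250 bases before the start are printed 5′ to 3′ in the direction of transcription, with all matches in capitals. Mcm6 lies at chr1:128359706-128359955 on the minus strand, Pcna at chr2:132253181-132253430 on the minus strand, Mki67 at chr7:135716380-135716629 on the minus strand, Top2a at chr11:99024190-99024439 on the minus strand and Ube2c at chr2:164769679-164769928 on the plus strand.
Mcm6: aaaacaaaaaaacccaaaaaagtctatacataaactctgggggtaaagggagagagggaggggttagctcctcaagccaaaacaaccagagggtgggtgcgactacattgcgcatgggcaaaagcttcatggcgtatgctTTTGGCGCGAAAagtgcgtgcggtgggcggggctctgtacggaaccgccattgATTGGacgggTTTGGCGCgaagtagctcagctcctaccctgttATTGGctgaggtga
Pcna: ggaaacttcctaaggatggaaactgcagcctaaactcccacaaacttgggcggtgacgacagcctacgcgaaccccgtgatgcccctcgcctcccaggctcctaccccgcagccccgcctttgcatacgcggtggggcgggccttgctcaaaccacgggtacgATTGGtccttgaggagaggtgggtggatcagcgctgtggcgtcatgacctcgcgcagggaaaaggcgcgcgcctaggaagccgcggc
Mki67: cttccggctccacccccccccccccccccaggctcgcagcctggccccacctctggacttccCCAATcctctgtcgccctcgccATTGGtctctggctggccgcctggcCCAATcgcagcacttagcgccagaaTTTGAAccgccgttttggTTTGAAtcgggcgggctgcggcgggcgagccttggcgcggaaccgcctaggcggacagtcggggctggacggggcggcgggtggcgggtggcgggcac
Top2a: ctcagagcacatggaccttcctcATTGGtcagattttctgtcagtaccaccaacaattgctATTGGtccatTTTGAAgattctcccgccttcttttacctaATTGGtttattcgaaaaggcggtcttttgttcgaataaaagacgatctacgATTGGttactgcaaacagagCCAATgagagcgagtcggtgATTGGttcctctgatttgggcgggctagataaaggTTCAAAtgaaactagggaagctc
Ube2c: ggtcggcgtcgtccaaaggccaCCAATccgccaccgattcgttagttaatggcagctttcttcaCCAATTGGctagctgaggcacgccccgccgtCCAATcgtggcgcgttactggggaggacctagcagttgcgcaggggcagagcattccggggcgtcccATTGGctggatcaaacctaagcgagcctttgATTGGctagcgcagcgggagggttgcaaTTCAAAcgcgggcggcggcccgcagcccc

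The Mcm6 promoter held 3 E2F matches, of which a pair overlaps, and no CHR match. Pcna had a single CCAAT match on the minus strand and neither of the other motifs. Mki67 and Top2a each held 2 CHR matches, and Ube2c held 1, on the minus strand next to the start. CCAAT matches numbered 3 in Mki67, 6 in Top2a and 6 in Ube2c, where a pair overlaps. Over the matched genes, CHR letters were found in 14 of 19 mitosis promoters and in 2 of 14 replication promoters (Cdc45 and Mcm2), against 17.9% of all 32851 windows. E2F letters were found in 6 of 14 replication promoters (Cdc6, Cdt1, Mcm3, Mcm5, Mcm6 and Mcm7) and in 1 of 19 mitosis promoters (Cdk1), against 2.26% of all windows. CCAAT was found in 17 of 19 mitosis and 9 of 14 replication promoters, against 37.4% of all windows. A match describes letters in these windows and no binding.

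Between the gates of the small intestine, 21 of the 39 genes fell in IL-25+ cells and none rose. Over all tested genes 12.8% were called lower and 14.5% higher in this comparison. The median log2 fold change of the 39 genes was -2.54, against -0.07 over all genes tested, and 38 of the 39 were negative. The 3 IL-25+ libraries lay below the 3 IL-25- libraries for 32 of the 39 genes, against 24.4% of all genes. Ccnb1 is in the 21 and the 32, and Ccne1 is in the 32. Both had enough counts to be tested only through SI IL-25- cells, so they add no independent support here. Genes of origin licensing and the helicase were called most often, 9 of 10, and 10 of the 22 mitosis genes were called. Mcm2, Mcm3, Mcm6, Mcm7, Cdt1, Ube2c, Bub1b, Kif23 and Top2a stayed called under all 19 alternatives tried. The count depended on single libraries: it was 12 without SI IL-25+ 2, 12 without SI IL-25+ 3, 11 without SI IL-25- 1 and 11 without SI IL-25- 3.

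In the gallbladder, 6 genes fell in IL-25+ cells (Mcm2, Mcm3, Mcm6, Gins2, Ube2c and Kif23) and 1 rose (Cenpa). The shares of all tested genes called lower and higher were 14.4% and 12.4%, so the count of members called lower was near the background. Non-overlapping lower values were found for 11 genes, against 23.4% of all genes, and non-overlapping higher values for 1, against 17.8%. The median log2 fold change of the 39 genes was -1.21, against -0.15 over all genes tested. Mcm2, Mcm6 and Kif23 stayed called under all 19 alternatives. With DESeq2 12 genes fell, without GB IL-25- 3 10 fell, and without GB IL-25- 2 none rose.

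**Figure D3:**
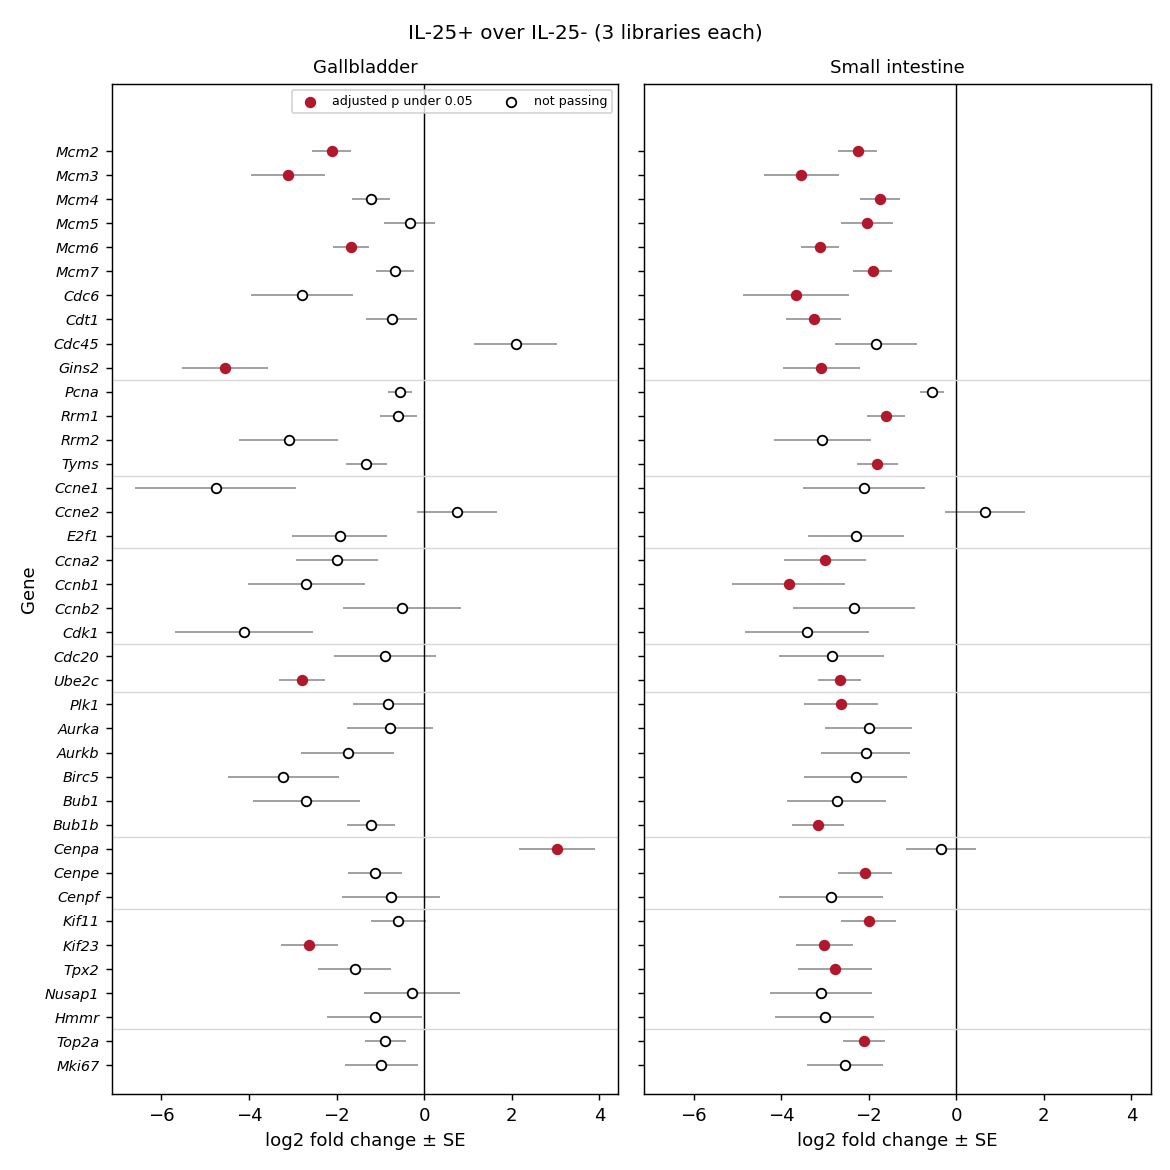
Log2 fold change of IL-25+ over IL-25- cells (horizontal, with SE) for each gene, in gallbladder (left) and small intestine (right), filled where the adjusted p was under 0.05. In the small intestine 21 points are filled, all left of 0, and in the gallbladder 7 are filled, of which Cenpa at 3.04 lies right of 0.

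Among IL-25+ cells, 10 genes were lower in gallbladder than in small intestine and none was higher. Over all genes 13.1% were called lower and 10.5% higher. Of the 10, 8 were mitosis genes (Ccna2, Ube2c, Aurkb, Birc5, Bub1, Cenpe, Kif11 and Top2a) and the others were Gins2 and Ccne1. The median log2 fold change was -1.74 over the 39 genes and -0.09 over all genes. By side it was -2.38 over the mitosis genes and -0.8 over the replication genes. Ube2c, Aurkb, Cenpe and Top2a stayed called under all 19 alternatives, and the count was 6 without SI IL-25+ 1.

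Among IL-25- cells, 23 genes were lower in gallbladder and none was higher, against 11.7% of all genes called lower and 13.0% called higher. The mitosis side took most of them, 17 of 22, with a median log2 fold change of -3.78, and 6 of 17 replication genes were called, with a median of -1.56. Over all 39 genes the median was -3.07, against -0.03 over all genes tested. Gallbladder libraries lay below small intestine libraries for 35 of the 39 genes, against 21.7% of all genes. Ccnb1 is in the 23 and the 35, and Ccne1 is in the 35. As between the small intestine gates, these genes, tested only through SI IL-25- counts, add no independent support. Ccna2, Ube2c, Plk1, Aurkb, Bub1, Bub1b, Cenpa, Cenpe, Kif11, Tpx2, Top2a and Mki67 stayed called under all 19 alternatives. The count was 14 without SI IL-25- 1, 13 without SI IL-25- 3, 13 without GB IL-25- 2 and 13 without GB IL-25- 3. Both tissue comparisons also cross the HDM AF647 label, and the gate comparisons share libraries with them.

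**Figure D4:**
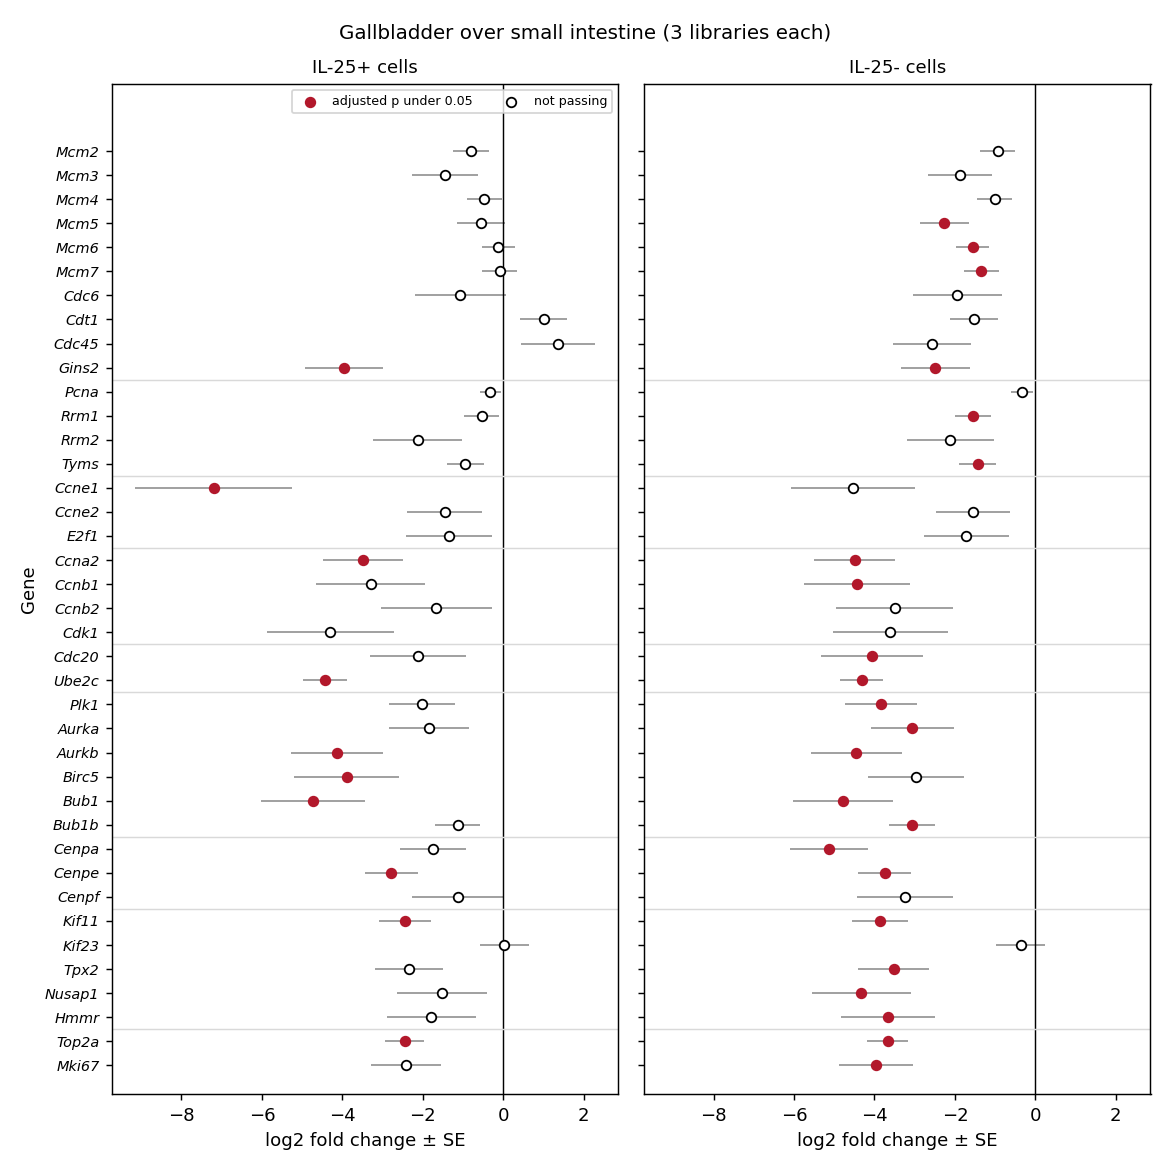
Log2 fold change of gallbladder over small intestine (horizontal, with SE) for each gene, in IL-25+ cells (left) and IL-25- cells (right), filled where the adjusted p was under 0.05. Filled points number 10 in IL-25+ and 23 in IL-25- cells, all left of 0, and in IL-25- cells most replication genes at the top, other than Ccne1 at -4.54, lie nearer 0 than most mitosis genes below. The Ccne1 point in IL-25+ cells is a fitted value against libraries at 0 counts.

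The gate effect itself was not called different between tissues for any of the 39 genes by edgeR's quasi-likelihood test. Over all genes, 3.63% were called with a more positive and 5.6% with a more negative effect in gallbladder. Unadjusted p was under 0.05 for 5 of the 39, and DESeq2 called 3. Of the interaction log2 fold changes, 33 were positive, with a median of 1.01 against -0.11 over all genes. The most positive was that of Cdc45 (3.92 ± 1.34, adjusted p = 0.088), followed by Cenpa (3.39 ± 1.17, adjusted p = 0.0901), Nusap1 (2.81 ± 1.57, adjusted p = 0.316) and Cdt1 (2.52 ± 0.84, adjusted p = 0.0787). Without SI IL-25+ 1 2 genes were called with a more positive effect, and 1 was called without GB IL-25+ 3, GB IL-25- 1 or GB IL-25- 3. Without GB IL-25+ 2, 1 gene was called with a more negative effect.

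The MCM helicase has 6 subunits, and the genes of Mcm2 and Mcm6 stayed called between the gates of both tissues under all 19 alternatives. Mcm2 stood at 2.67, 2.82 and 5.17 CPM in GB IL-25+ libraries 1 to 3 and at 15.97, 15.9 and 14.3 CPM in GB IL-25- libraries. It stood at 7.73, 7.54 and 3.32 CPM in SI IL-25+ libraries and at 42.2, 19.8 and 26.3 CPM in SI IL-25- libraries. IL-25+ lay below IL-25- in each tissue, with log2 fold changes of -2.11 ± 0.45, adjusted p = 0.00374, in gallbladder and -2.25 ± 0.45, adjusted p = 0.00256, in small intestine. Mcm6 was read at 9.70, 5.79 and 7.995 CPM in GB IL-25+ libraries 1 to 3 and at 24.8, 18.9 and 30.9 CPM in GB IL-25- libraries. It was read at 14.1, 5.34 and 6.04 CPM in SI IL-25+ libraries and at 103.5, 46.1 and 69.9 CPM in SI IL-25- libraries. Mcm6 (ENSMUSG00000026355, chromosome 1, 128331590 to 128359664 on GRCm38) again separated the gates without overlap, with log2 fold changes of -1.67 ± 0.42, adjusted p = 0.0101, in gallbladder and -3.11 ± 0.44, adjusted p = 0.000206, in small intestine. In IL-25- cells it was also lower in gallbladder (-1.56 ± 0.42, adjusted p = 0.0155), while in IL-25+ cells the tissues overlapped (-0.12 ± 0.41, adjusted p = 0.871). Mcm3 stood at 0.407, 1.67 and 0.242 CPM in GB IL-25+ libraries 1 to 3 and at 8.41, 6.65 and 4.81 CPM in GB IL-25- libraries. It stood at 4.19, 1.44 and 0.608 CPM in SI IL-25+ libraries and at 35.6, 9.81 and 27.1 CPM in SI IL-25- libraries. Mcm3 was lower in IL-25+ cells of gallbladder (-3.11 ± 0.85, adjusted p = 0.0163) and of small intestine (-3.54 ± 0.86, adjusted p = 0.00844), and again no libraries overlapped. Mcm6 lost its tissue call without SI IL-25- 1, or GB IL-25- 2, and without SI IL-25- 3 and GB IL-25- 1 together (adjusted p 0.00154 to 0.0795 over its alternatives). Mcm3 lost its gallbladder call without GB IL-25+ 1 or 3, and without SI IL-25- 3 and GB IL-25- 1 together (adjusted p 0.000635 to 0.0606 over its alternatives), and its log2 fold change was -4.35 without GB IL-25+ 2 and -4.55 without SI IL-25+ 1.

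Between the gates, the other subunits were called in the small intestine alone, and the interaction test called no difference between tissues. Mcm4 stood at 12.1, 5.34 and 5.30 CPM in GB IL-25+ libraries 1 to 3 and at 21.5, 11.2 and 19.8 CPM in GB IL-25- libraries. It stood at 13.3, 6.02 and 12.2 CPM in SI IL-25+ libraries and at 44.6, 33.6 and 27.2 CPM in SI IL-25- libraries. The small intestine gates did not overlap (-1.74 ± 0.45, adjusted p = 0.0113), and the gallbladder gates did (-1.21 ± 0.44, adjusted p = 0.0581). Mcm5 stood at 2.701, 1.89 and 10.2 CPM in GB IL-25+ libraries 1 to 3 and at 6.22, 6.32 and 6.07 CPM in GB IL-25- libraries. It stood at 7.24, 9.39 and 4.99 CPM in SI IL-25+ libraries and at 33.8, 15.0 and 40.1 CPM in SI IL-25- libraries. GB IL-25+ 3 stood above the other GB libraries. Mcm5 fell in SI IL-25+ cells (-2.04 ± 0.60, adjusted p = 0.0237) and was lower in gallbladder among IL-25- cells (-2.26 ± 0.61, adjusted p = 0.0163). Mcm7 stood at 8.68, 7.28 and 3.18 CPM in GB IL-25+ libraries 1 to 3 and at 10.1, 8.77 and 11.5 CPM in GB IL-25- libraries. It stood at 6.87, 7.22 and 6.32 CPM in SI IL-25+ libraries and at 32.8, 14.8 and 29.3 CPM in SI IL-25- libraries. Mcm7 stood higher in each SI IL-25- library than in any other library. It had the same pair of calls, -1.91 ± 0.45, adjusted p = 0.00651, between gates and -1.34 ± 0.44, adjusted p = 0.0391, between tissues in IL-25- cells. Mcm4 lost its call without SI IL-25+ 2 (adjusted p 0.000331 to 0.0508 over its alternatives). Mcm5 lost its gate call without SI IL-25+ 1 or 3, or SI IL-25- 1 or 3, and without SI IL-25- 3 and GB IL-25- 1 together (adjusted p 0.00176 to 0.0982 over its alternatives) and its tissue call without SI IL-25- 3, or GB IL-25- 3, and without SI IL-25- 3 and GB IL-25- 1 together (adjusted p 0.000835 to 0.122 over its alternatives). Mcm7 lost its tissue call without SI IL-25+ 1, 2 or 3, SI IL-25- 1 or 3, or GB IL-25- 1, 2 or 3, with no filter on low counts, and without SI IL-25- 3 and GB IL-25- 1 together (adjusted p 0.00715 to 0.211 over its alternatives). The Mcm7 tissue call was also lost with a replicate block (adjusted p = 0.0611).

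Cdc6 and Cdt1 load the MCM ring onto origins, and Cdc45 and the GINS complex, with its subunit Gins2, turn it into an active helicase. Cdt1 stood at 5.61, 2.04 and 1.35 CPM in GB IL-25+ libraries 1 to 3 and at 5.70, 5.76 and 3.54 CPM in GB IL-25- libraries. It stood at 1.43, 1.76 and 1.30 CPM in SI IL-25+ libraries and at 18.9, 11.8 and 12.4 CPM in SI IL-25- libraries. All SI IL-25+ libraries were under 2 CPM, and the gates did not overlap (-3.26 ± 0.63, adjusted p = 0.00207). GB IL-25+ 1 reached the level of the GB IL-25- libraries, and the gallbladder difference did not pass (-0.74 ± 0.58, adjusted p = 0.381). Cdc6 stood at 0.552, 1.23 and 0 CPM in GB IL-25+ libraries 1 to 3 and at 6.22, 3.93 and 2.05 CPM in GB IL-25- libraries. It stood at 1.06, 2.49 and 0.162 CPM in SI IL-25+ libraries and at 23.4, 13.5 and 10.1 CPM in SI IL-25- libraries. Cdc6 fell in SI IL-25+ cells (-3.66 ± 1.20, adjusted p = 0.038), where no libraries overlapped and SI IL-25+ 3 was near 0. Gins2 stood at 0.0290, 0.0742 and 0.0808 CPM in GB IL-25+ libraries 1 to 3 and at 2.29, 1.74 and 0.487 CPM in GB IL-25- libraries. It stood at 1.02, 0.281 and 1.70 CPM in SI IL-25+ libraries and at 9.32, 7.47 and 8.76 CPM in SI IL-25- libraries. GB IL-25+ cells held 6 Gins2 reads in all, below every other library. Gins2 was lower in IL-25+ cells of gallbladder (-4.55 ± 0.99, adjusted p = 0.00422) and small intestine (-3.08 ± 0.88, adjusted p = 0.0201), and lower in gallbladder among IL-25+ (-3.96 ± 0.97, adjusted p = 0.0103) and IL-25- cells (-2.49 ± 0.86, adjusted p = 0.0495). On the opposite strand Gse1 overlaps 2758 of its 4097 exonic bases, and without strand their reads cannot be told apart. Cdc45 ranged from 0.642 to 11.9 CPM over the 12 libraries and was called in no comparison. Its largest value in gallbladder, in GB IL-25+ 2, stood above all GB IL-25- libraries.

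Cdc6 lost its call without SI IL-25+ 1 or 3, or SI IL-25- 1, 2 or 3, and without SI IL-25- 3 and GB IL-25- 1 together (adjusted p 0.00169 to 0.11 over its alternatives), and its log2 fold change was -4.67 without SI IL-25+ 2. Gins2 lost its small intestine call without SI IL-25+ 1 or 2, or SI IL-25- 1 or 3, and without SI IL-25- 3 and GB IL-25- 1 together (adjusted p 0.000263 to 0.0659 over its alternatives). Among its other calls, that in gallbladder and that in IL-25+ cells were lost when only the compared groups were fitted (adjusted p 2.08e-05 to 0.0531 and 0.000456 to 0.107 over their alternatives). The Gins2 call in IL-25- cells was lost without SI IL-25+ 1 or 3, SI IL-25- 1, 2 or 3, GB IL-25+ 2, or GB IL-25- 1, 2 or 3, with no filter on low counts, and without SI IL-25- 3 and GB IL-25- 1 together (adjusted p 0.00449 to 0.135 over its alternatives). That call was also lost with a replicate block (adjusted p = 0.0844). Without SI IL-25+ 3 the log2 fold change of Gins2 was -3.70 between the small intestine gates and -3.34 between tissues.

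Of the genes for nucleotide supply and the clamp, Rrm1 and Tyms moved and Pcna and Rrm2 were called nowhere. Pcna stood at 20.97, 31.3 and 20.5 CPM in GB IL-25+ libraries 1 to 3 and at 36.4, 39.9 and 30.4 CPM in GB IL-25- libraries. It stood at 28.7, 25.1 and 37.3 CPM in SI IL-25+ libraries and at 46.8, 34.6 and 52.8 CPM in SI IL-25- libraries. The groups of Pcna overlapped in every comparison, and its log2 fold changes lay between -0.56 and -0.32. Processed pseudogenes of Pcna and Tyms may share their reads. Rrm1 stood at 21.8, 9.54 and 11.6 CPM in GB IL-25+ libraries 1 to 3 and at 25.7, 21.9 and 16.99 CPM in GB IL-25- libraries. It stood at 24.7, 19.1 and 18.6 CPM in SI IL-25+ libraries and at 87.3, 24.3 and 77.8 CPM in SI IL-25- libraries. Rrm1, the large subunit of ribonucleotide reductase, was lower in SI IL-25+ cells (-1.60 ± 0.44, adjusted p = 0.0168) and lower in gallbladder among IL-25- cells (-1.55 ± 0.44, adjusted p = 0.0213). In both cases SI IL-25- 2 lay inside the range of the other group. Tyms stood at 6.24, 1.71 and 4.95 CPM in GB IL-25+ libraries 1 to 3 and at 10.8, 11.6 and 9.81 CPM in GB IL-25- libraries. It stood at 7.998, 7.70 and 9.16 CPM in SI IL-25+ libraries and at 37.3, 17.1 and 32.4 CPM in SI IL-25- libraries. Tyms, thymidylate synthase, had the same pair of calls (-1.80 ± 0.47, adjusted p = 0.0121 and -1.43 ± 0.46, adjusted p = 0.0379) with no overlap. Rrm2 stood at 0.203, 1.49 and 0 CPM in GB IL-25+ libraries 1 to 3 and at 5.81, 3.63 and 4.68 CPM in GB IL-25- libraries. It stood at 4.94, 0.923 and 1.42 CPM in SI IL-25+ libraries and at 23.7, 9.78 and 27.3 CPM in SI IL-25- libraries. The small subunit gene Rrm2 did not pass in either gate comparison, although neither overlapped (-3.09 ± 1.13, adjusted p = 0.0595, in gallbladder and -3.06 ± 1.11, adjusted p = 0.057, in small intestine). Rrm1 lost its gate call without SI IL-25+ 2 or 3, or SI IL-25- 1 or 3, and without SI IL-25- 3 and GB IL-25- 1 together (adjusted p 0.00111 to 0.0728 over its alternatives) and its tissue call without SI IL-25- 1 or 3, or GB IL-25- 2 or 3, and without SI IL-25- 3 and GB IL-25- 1 together (adjusted p 0.00259 to 0.0974 over its alternatives). Tyms lost its gate call without SI IL-25- 1 (adjusted p 0.000256 to 0.0519 over its alternatives) and its tissue call without SI IL-25+ 1, SI IL-25- 1 or 3, or GB IL-25- 1, 2 or 3, with no filter on low counts, and without SI IL-25- 3 and GB IL-25- 1 together (adjusted p 0.00712 to 0.189 over its alternatives). The Tyms tissue call was also lost with a replicate block (adjusted p = 0.0537).

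The G1/S genes had few reads. Cyclin E, encoded by Ccne1 and Ccne2, activates CDK2 to start replication. Ccne1 stood at 0, 0 and 0 CPM in GB IL-25+ libraries 1 to 3 and at 0.239, 0.0295 and 0 CPM in GB IL-25- libraries. It stood at 0.905, 0.281 and 0.405 CPM in SI IL-25+ libraries and at 3.35, 1.40 and 2.11 CPM in SI IL-25- libraries. With 0 of its reads in any GB IL-25+ library, Ccne1 was at least 17.4-fold lower there than in SI IL-25+ cells, at a floor of 3 counts over the group (adjusted p = 0.0204). That call was lost when only the compared groups were fitted (adjusted p 0.00244 to 0.0511 over its alternatives). Ccne2 ranged from 0.407 to 5.23 CPM over all libraries, with overlapping groups in every comparison. It was the gene with its highest mean in SI IL-25+ cells, where SI IL-25+ 3 held the 5.23 CPM, and it did not pass between the gates (0.65 ± 0.91, adjusted p = 0.637, in small intestine). E2f1, which encodes a transcription factor for replication genes, ranged from 0.151 to 5.66 CPM and was called in no comparison.

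Among the mitotic cyclins, Ccna2 and Ccnb1 were called. Cyclin A2 pairs with CDK2 and CDK1, and cyclins B1 and B2 pair with CDK1. Ccna2 stood at 0.697, 1.41 and 0.296 CPM in GB IL-25+ libraries 1 to 3 and at 7.12, 1.92 and 0.260 CPM in GB IL-25- libraries. It stood at 16.9, 5.78 and 3.97 CPM in SI IL-25+ libraries and at 68.3, 57.3 and 86.7 CPM in SI IL-25- libraries. SI IL-25- libraries stood above every other library. Ccna2 fell in SI IL-25+ cells (-2.99 ± 0.94, adjusted p = 0.034) and was lower in gallbladder among IL-25+ (-3.49 ± 0.99, adjusted p = 0.024) and IL-25- cells (-4.49 ± 1.00, adjusted p = 0.0072). Ccnb1 stood at 0.0290, 0.0742 and 0.0269 CPM in GB IL-25+ libraries 1 to 3 and at 0.618, 0.207 and 0.0325 CPM in GB IL-25- libraries. It stood at 1.13, 0.0401 and 0.162 CPM in SI IL-25+ libraries and at 7.09, 4.44 and 7.59 CPM in SI IL-25- libraries. Ccnb1 too was high in the SI IL-25- libraries alone, and with few reads elsewhere it passed the filter on low counts through that group alone, so its calls against that group are no independent support. It fell in SI IL-25+ cells (-3.83 ± 1.29, adjusted p = 0.0422) and in gallbladder among IL-25- cells (-4.43 ± 1.32, adjusted p = 0.0268). Ccnb2 stood at 4.38, 5.75 and 0.0269 CPM in GB IL-25+ libraries 1 to 3 and at 7.96, 2.01 and 4.35 CPM in GB IL-25- libraries. It stood at 27.5, 1.20 and 3.32 CPM in SI IL-25+ libraries and at 37.7, 22.8 and 102 CPM in SI IL-25- libraries. Within each group Ccnb2 spread widely, and it was called in no comparison. Cdk1 was read at 0, 0 and 0.162 CPM in GB IL-25+ libraries 1 to 3 and at 1.95, 1.15 and 0 CPM in GB IL-25- libraries. It was read at 2.34, 1.00 and 0.243 CPM in SI IL-25+ libraries and at 10.3, 7.34 and 20.6 CPM in SI IL-25- libraries. Cdk1 did not pass between the small intestine gates (-3.41 ± 1.42, adjusted p = 0.0928), whose libraries did not overlap.

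Ccna2 lost its gate call without SI IL-25+ 2 or 3, or SI IL-25- 1, 2 or 3, and with no filter on low counts (adjusted p 0.000851 to 0.117 over its alternatives) and its call in IL-25+ cells without SI IL-25+ 1, or GB IL-25+ 1 or 3, and with no filter on low counts (adjusted p 0.000476 to 0.0879 over its alternatives). Its log2 fold change without SI IL-25+ 1 was -3.86 between the gates and -2.62 between tissues in IL-25+ cells, where it was -4.13 without GB IL-25+ 2. In IL-25- cells it was -5.97 without GB IL-25- 1. Ccnb1 lost its gate call without SI IL-25+ 2 or 3, SI IL-25- 1, 2 or 3, or GB IL-25- 2, with no filter on low counts, and without SI IL-25- 3 and GB IL-25- 1 together (adjusted p 0.00265 to 0.133 over its alternatives) and its tissue call without SI IL-25- 1 or 3, or GB IL-25- 2 or 3, and without SI IL-25- 3 and GB IL-25- 1 together (adjusted p 0.000538 to 0.0867 over its alternatives). Its log2 fold change was -5.93 without SI IL-25+ 1 and -5.64 without GB IL-25- 1.

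Ube2c, the E2 enzyme that works with the APC/C, was lower in all 4 comparisons, as Gins2 was. Ube2c stood at 0.871, 0.817 and 0.108 CPM in GB IL-25+ libraries 1 to 3 and at 5.02, 3.57 and 3.70 CPM in GB IL-25- libraries. It stood at 15.7, 10.6 and 12.5 CPM in SI IL-25+ libraries and at 94.6, 66.5 and 84.8 CPM in SI IL-25- libraries. No libraries overlapped in any comparison, and SI IL-25- libraries stood far above all others. Between the gates Ube2c (ENSMUSG00000001403, chromosome 2, 164769898 to 164778822) fell in IL-25+ cells, with log2 fold changes of -2.79 ± 0.52, adjusted p = 0.00151, in gallbladder and -2.66 ± 0.49, adjusted p = 0.00141, in small intestine. Between tissues it was lower in gallbladder in IL-25+ (-4.44 ± 0.55, adjusted p = 9.93e-05) and IL-25- cells (-4.32 ± 0.53, adjusted p = 9.18e-05). Its gallbladder gate call was lost when only the compared groups were fitted (adjusted p 2.9e-07 to 0.0951 over its alternatives). Tnnc2 overlaps 592 of its 2600 exonic bases on the other strand. Cdc20 stood at 0.726, 0.594 and 0.0269 CPM in GB IL-25+ libraries 1 to 3 and at 1.78, 0.591 and 0.0974 CPM in GB IL-25- libraries. It stood at 4.57, 0.762 and 0.527 CPM in SI IL-25+ libraries and at 11.3, 7.44 and 23.3 CPM in SI IL-25- libraries. Cdc20, an activator of the APC/C, was lower in gallbladder among IL-25- cells (-4.06 ± 1.27, adjusted p = 0.0323) and did not pass between the gates. That call was lost without SI IL-25- 1 or 3, or GB IL-25- 2 or 3, and without SI IL-25- 3 and GB IL-25- 1 together (adjusted p 0.000905 to 0.106 over its alternatives), and the value was -3.47 without SI IL-25- 3 and -5.28 without GB IL-25- 1.

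For all 6 genes of mitotic kinases and their partners, SI IL-25+ libraries lay below SI IL-25- libraries, against 24.4% of all genes. Their log2 fold changes there lay between -3.16 and -2.0, and 2 of the 6 were called lower (Bub1b and Plk1), against 12.8% of all genes. Bub1b stood at 2.09, 1.89 and 3.55 CPM in GB IL-25+ libraries 1 to 3 and at 9.23, 2.51 and 5.75 CPM in GB IL-25- libraries. It stood at 8.15, 3.37 and 4.99 CPM in SI IL-25+ libraries and at 64.6, 21.1 and 62.2 CPM in SI IL-25- libraries. Bub1b, which encodes the checkpoint protein BubR1, fell in SI IL-25+ cells (-3.16 ± 0.59, adjusted p = 0.00148) and in gallbladder among IL-25- cells (-3.07 ± 0.58, adjusted p = 0.00203), with no overlap. The gallbladder gates overlapped (-1.21 ± 0.55, adjusted p = 0.124). Plk1 stood at 2.67, 3.56 and 0.135 CPM in GB IL-25+ libraries 1 to 3 and at 6.57, 3.60 and 0.942 CPM in GB IL-25- libraries. It stood at 7.62, 6.78 and 11.3 CPM in SI IL-25+ libraries and at 52.5, 50.7 and 56.4 CPM in SI IL-25- libraries. SI IL-25- libraries were close to each other, and each was above all other libraries. Plk1, polo-like kinase, was lower in SI IL-25+ cells (-2.63 ± 0.84, adjusted p = 0.0352) and in gallbladder among IL-25- cells (-3.83 ± 0.89, adjusted p = 0.00774). Aurkb stood at 0.494, 0.408 and 0 CPM in GB IL-25+ libraries 1 to 3 and at 2.41, 0.325 and 0.227 CPM in GB IL-25- libraries. It stood at 5.09, 3.33 and 7.38 CPM in SI IL-25+ libraries and at 34.8, 11.3 and 20.2 CPM in SI IL-25- libraries. Gallbladder lay below small intestine in each gate. Aurora kinase B was called between tissues, in IL-25+ (-4.13 ± 1.15, adjusted p = 0.0192) and IL-25- cells (-4.45 ± 1.13, adjusted p = 0.012). Birc5 stood at 0, 1.30 and 0 CPM in GB IL-25+ libraries 1 to 3 and at 4.21, 1.56 and 5.98 CPM in GB IL-25- libraries. It stood at 7.43, 4.33 and 6.89 CPM in SI IL-25+ libraries and at 27.7, 15.6 and 48.9 CPM in SI IL-25- libraries. Birc5, survivin, a partner of Aurora B, had reads in GB IL-25+ 2 but none in GB IL-25+ 1 and 3. It was lower in gallbladder among IL-25+ cells (-3.89 ± 1.30, adjusted p = 0.0479).

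Bub1 stood at 0.203, 0.0371 and 0.0269 CPM in GB IL-25+ libraries 1 to 3 and at 1.32, 0.443 and 0 CPM in GB IL-25- libraries. It stood at 5.09, 1.16 and 1.22 CPM in SI IL-25+ libraries and at 16.5, 14.2 and 18.9 CPM in SI IL-25- libraries. The checkpoint kinase gene Bub1 was lower in gallbladder among IL-25+ (-4.73 ± 1.30, adjusted p = 0.0184) and IL-25- cells (-4.78 ± 1.24, adjusted p = 0.0133), and no libraries overlapped. Aurka stood at 1.13, 1.97 and 0.0269 CPM in GB IL-25+ libraries 1 to 3 and at 3.51, 1.33 and 0.455 CPM in GB IL-25- libraries. It stood at 3.36, 4.65 and 3.12 CPM in SI IL-25+ libraries and at 14.9, 10.7 and 19.0 CPM in SI IL-25- libraries. Aurora kinase A, which acts at spindle poles, was lower in gallbladder among IL-25- cells (-3.06 ± 1.03, adjusted p = 0.0456). Plk1 lost its gate call without SI IL-25+ 1, 2 or 3, or SI IL-25- 1, 2 or 3, with no filter on low counts, and without SI IL-25- 3 and GB IL-25- 1 together (adjusted p 0.000112 to 0.114 over its alternatives), and between tissues it was -4.50 without GB IL-25- 1. The Plk1 gate call was also lost with a replicate block (adjusted p = 0.0502). Aurka lost its call without SI IL-25+ 1, 2 or 3, SI IL-25- 1, 2 or 3, GB IL-25+ 1, or GB IL-25- 2 or 3, and without SI IL-25- 3 and GB IL-25- 1 together (adjusted p 0.00383 to 0.128 over its alternatives) and was -4.01 without GB IL-25- 1. Birc5 lost its call without SI IL-25+ 1, 2 or 3, SI IL-25- 1, 2 or 3, GB IL-25+ 1 or 3, or GB IL-25- 2 or 3, with RLE size factors, with no filter on low counts, when only the compared groups were fitted, and without SI IL-25- 3 and GB IL-25- 1 together (adjusted p 0.000311 to 0.138 over its alternatives). The Birc5 call was also lost with a replicate block (adjusted p = 0.0984). Bub1 lost its call in IL-25+ cells without SI IL-25+ 1, or GB IL-25+ 2 or 3 (adjusted p 0.000346 to 0.0675 over its alternatives). Birc5 was -3.26 without GB IL-25+ 1 and -3.25 without GB IL-25+ 3, and without GB IL-25+ 2, both remaining libraries were at 0 counts. Bub1 in IL-25+ cells was -6.12 without GB IL-25+ 1 and -3.67 without SI IL-25+ 1. Aurkb in IL-25+ cells was -3.50 without GB IL-25+ 3. In IL-25- cells, without GB IL-25- 1, Bub1 was -6.14 and Aurkb was -6.26.

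Cenpa, the histone H3 variant that marks centromeres, was the gene called higher in IL-25+ cells of the gallbladder. Cenpa stood at 4.53, 3.08 and 5.98 CPM in GB IL-25+ libraries 1 to 3 and at 1.22, 0.354 and 0 CPM in GB IL-25- libraries. It stood at 13.1, 11.7 and 20.6 CPM in SI IL-25+ libraries and at 20.5, 17.6 and 19.8 CPM in SI IL-25- libraries. Every GB IL-25+ library was above every GB IL-25- library, and SI IL-25+ libraries overlapped SI IL-25- libraries. Cenpa (ENSMUSG00000029177, chromosome 5, 30666777 to 30674830) rose in GB IL-25+ cells (3.04 ± 0.87, adjusted p = 0.0206) and did not pass between the small intestine gates (-0.35 ± 0.80, adjusted p = 0.788). In IL-25- cells it was lower in gallbladder (-5.13 ± 0.96, adjusted p = 0.00179). Its gallbladder gate call was lost without GB IL-25- 2, and when only the compared groups were fitted (adjusted p 0.000286 to 0.128 over its alternatives). Without GB IL-25- 1 its log2 fold change was 4.60 between those gates and -6.67 between tissues in IL-25- cells.

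Cenpe stood at 2.96, 1.86 and 0.619 CPM in GB IL-25+ libraries 1 to 3 and at 7.24, 3.25 and 1.27 CPM in GB IL-25- libraries. It stood at 16.8, 8.27 and 12.4 CPM in SI IL-25+ libraries and at 45.3, 43.4 and 69.8 CPM in SI IL-25- libraries. Cenpe, a kinesin of the kinetochore, was high in SI IL-25- and low in both gallbladder groups, and it fell in SI IL-25+ cells (-2.08 ± 0.62, adjusted p = 0.0244). It was lower in gallbladder among IL-25+ (-2.78 ± 0.65, adjusted p = 0.00725) and IL-25- cells (-3.74 ± 0.66, adjusted p = 0.00127). Cenpf stood at 5.58, 4.01 and 0.0269 CPM in GB IL-25+ libraries 1 to 3 and at 9.49, 5.82 and 0.715 CPM in GB IL-25- libraries. It stood at 11.6, 4.09 and 5.27 CPM in SI IL-25+ libraries and at 57.6, 35.8 and 59.0 CPM in SI IL-25- libraries. Cenpf, another kinetochore protein, passed in no comparison, although SI IL-25- libraries lay above all others. Cenpe lost its gate call without SI IL-25+ 2 or 3, or SI IL-25- 3, and without SI IL-25- 3 and GB IL-25- 1 together (adjusted p 0.00104 to 0.0945 over its alternatives), and its tissue value in IL-25- cells was -4.50 without GB IL-25- 1.

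Kif23, a kinesin of the central spindle needed for cytokinesis, differed by gate and not detectably by tissue. Kif23 stood at 10.3, 6.35 and 1.16 CPM in GB IL-25+ libraries 1 to 3 and at 33.1, 34.0 and 42.2 CPM in GB IL-25- libraries. It stood at 9.32, 5.70 and 2.35 CPM in SI IL-25+ libraries and at 46.0, 33.5 and 60.7 CPM in SI IL-25- libraries. In each tissue the IL-25+ libraries lay below the IL-25- libraries, and within a gate the tissues overlapped. Kif23 (ENSMUSG00000032254, chromosome 9, 61915905 to 61946774) fell in IL-25+ cells, with log2 fold changes of -2.62 ± 0.65, adjusted p = 0.0093, in gallbladder and -3.01 ± 0.66, adjusted p = 0.00453, in small intestine. Between tissues its log2 fold changes were 0.03 ± 0.62, adjusted p = 0.981, in IL-25+ and -0.36 ± 0.61, adjusted p = 0.721, in IL-25- cells. Its gallbladder value was -3.30 without GB IL-25+ 1.

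Kif11 stood at 1.25, 1.82 and 2.02 CPM in GB IL-25+ libraries 1 to 3 and at 3.52, 1.24 and 2.86 CPM in GB IL-25- libraries. It stood at 17.9, 6.58 and 3.08 CPM in SI IL-25+ libraries and at 43.7, 17.4 and 49.7 CPM in SI IL-25- libraries. Kif11, the kinesin that pushes spindle poles apart, fell in SI IL-25+ cells (-2.00 ± 0.63, adjusted p = 0.0321), where SI IL-25+ 1 lay within the range of the other gate. It was lower in gallbladder among IL-25+ (-2.44 ± 0.65, adjusted p = 0.016) and IL-25- cells (-3.86 ± 0.69, adjusted p = 0.0013). Tpx2 stood at 2.27, 1.37 and 0.108 CPM in GB IL-25+ libraries 1 to 3 and at 7.09, 2.92 and 1.20 CPM in GB IL-25- libraries. It stood at 8.68, 6.86 and 3.40 CPM in SI IL-25+ libraries and at 42.9, 24.9 and 61.5 CPM in SI IL-25- libraries. Tpx2, which activates Aurora A on the spindle, fell in SI IL-25+ cells (-2.77 ± 0.85, adjusted p = 0.0282) and in gallbladder among IL-25- cells (-3.52 ± 0.88, adjusted p = 0.0109). Nusap1 stood at 1.57, 3.04 and 0.0269 CPM in GB IL-25+ libraries 1 to 3 and at 3.97, 1.27 and 0.260 CPM in GB IL-25- libraries. It stood at 7.85, 3.77 and 1.58 CPM in SI IL-25+ libraries and at 39.1, 22.8 and 50.4 CPM in SI IL-25- libraries. Nusap1, a microtubule-binding protein of the spindle, was lower in gallbladder among IL-25- cells (-4.33 ± 1.23, adjusted p = 0.0236). Hmmr stood at 0.813, 1.71 and 0 CPM in GB IL-25+ libraries 1 to 3 and at 2.96, 1.48 and 1.01 CPM in GB IL-25- libraries. It stood at 6.04, 0.963 and 1.62 CPM in SI IL-25+ libraries and at 24.1, 9.91 and 35.1 CPM in SI IL-25- libraries. Hmmr, a spindle and hyaluronan-binding protein, had the same call (-3.66 ± 1.16, adjusted p = 0.0354). SI IL-25- libraries stood above all other libraries for Tpx2, Nusap1 and Hmmr.

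Kif11 lost its gate call without SI IL-25+ 2 or 3, or SI IL-25- 1 or 3, and without SI IL-25- 3 and GB IL-25- 1 together (adjusted p 0.00327 to 0.114 over its alternatives) and its call in IL-25+ cells without SI IL-25+ 1, or GB IL-25+ 1 (adjusted p 0.00178 to 0.0965 over its alternatives), with values of -2.93 and -1.51 without SI IL-25+ 1. Tpx2 lost its gate call without SI IL-25+ 1, 2 or 3, or SI IL-25- 1 or 3, with no filter on low counts, and without SI IL-25- 3 and GB IL-25- 1 together (adjusted p 0.0012 to 0.105 over its alternatives) and was -4.34 between tissues without GB IL-25- 1. Nusap1 lost its call without SI IL-25- 3, or GB IL-25- 2 or 3, and with no filter on low counts (adjusted p 0.000115 to 0.0825 over its alternatives) and was -5.56 without GB IL-25- 1. Hmmr lost its call without SI IL-25- 1 or 3, or GB IL-25- 2 or 3, with no filter on low counts, and without SI IL-25- 3 and GB IL-25- 1 together (adjusted p 0.00148 to 0.125 over its alternatives).

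Top2a, the topoisomerase that untangles replicated chromosomes, and Mki67, whose product Ki-67 coats mitotic chromosomes and marks proliferating cells, act on the chromosomes themselves. Top2a stood at 10.4, 11.9 and 2.99 CPM in GB IL-25+ libraries 1 to 3 and at 24.5, 12.3 and 9.90 CPM in GB IL-25- libraries. It stood at 57.3, 35.7 and 45.5 CPM in SI IL-25+ libraries and at 236, 129.5 and 231 CPM in SI IL-25- libraries. GB IL-25+ 1 and 2 lay above GB IL-25- 3, and the other comparisons had no overlap. Top2a (ENSMUSG00000020914, chromosome 11, 98992943 to 99024189) fell in SI IL-25+ cells (-2.11 ± 0.48, adjusted p = 0.00617) and was lower in gallbladder among IL-25+ (-2.45 ± 0.49, adjusted p = 0.0031) and IL-25- cells (-3.67 ± 0.51, adjusted p = 0.000279). Mki67 stood at 18.2, 18.1 and 1.99 CPM in GB IL-25+ libraries 1 to 3 and at 47.6, 19.2 and 8.25 CPM in GB IL-25- libraries. It stood at 116, 36.1 and 51.1 CPM in SI IL-25+ libraries and at 444.5, 218 and 515.5 CPM in SI IL-25- libraries. SI IL-25- libraries were above all others, and GB IL-25+ 3 was far below the rest. Mki67 (ENSMUSG00000031004, chromosome 7, 135689784 to 135716361) was lower in gallbladder among IL-25- cells (-3.97 ± 0.92, adjusted p = 0.0114), a value that was -4.79 without GB IL-25- 1. It did not pass between the small intestine gates (-2.54 ± 0.87, adjusted p = 0.0544), where it passed under 8 of 19 alternatives (adjusted p 0.000926 to 0.16), nor between the gallbladder gates (-0.98 ± 0.83, adjusted p = 0.426).

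Other genes of the same pathways, taken from 4 lists written beside the 39 genes, were counted in the same tests. Of 44 tested genes of replication, 2 rose and 9 fell in SI IL-25+ cells, 2 rose and 3 fell in GB IL-25+ cells, 3 were lower in gallbladder among IL-25+ cells, and 2 were higher and 14 lower among IL-25- cells. Of 55 tested genes of mitosis, 1 rose and 13 fell in SI IL-25+ cells, 5 rose and 3 fell in GB IL-25+ cells, 1 was higher and 16 lower in gallbladder among IL-25+ cells, and 32 were lower among IL-25- cells. Median log2 fold changes in the same order were -0.73, 0.05, -0.32 and -1.27 for replication and -2.22, -0.76, -1.21 and -3.17 for mitosis. With 1 library left out, the 9 became 3 to 13, the 14 became 9 to 16, the 13 became 3 to 23, the 16 became 9 to 19, the 32 became 19 to 36 and the 3 mitosis genes that fell in gallbladder became 1 to 6. Over all genes the shares called higher and lower were 14.5% and 12.8% in the small intestine gates. They were 12.4% and 14.4% in the gallbladder gates. Between tissues, the shares higher and lower in gallbladder were 10.5% and 13.1% in IL-25+ and 13.0% and 11.7% in IL-25- cells. The counts called higher on both lists lay below those shares throughout. So did the counts called lower of both lists in the gallbladder gates, and of replication genes among IL-25+ cells. Bub3, a checkpoint protein that binds Bub1 and BubR1, was the mitosis gene that rose in the small intestine gates, where 13 fell. Bub3 stood at 155, 145 and 141 CPM in GB IL-25+ libraries 1 to 3 and at 23.5, 22.8 and 19.3 CPM in GB IL-25- libraries. It stood at 279.8, 294 and 293 CPM in SI IL-25+ libraries and at 25.6, 22.9 and 28.1 CPM in SI IL-25- libraries. It rose in IL-25+ cells of gallbladder (2.75 ± 0.17, adjusted p = 2.19e-07) and small intestine (3.50 ± 0.18, adjusted p = 3.99e-08), while its partners Bub1 and Bub1b had negative log2 fold changes. Among IL-25+ cells Bub3 was lower in gallbladder (-0.98 ± 0.16, adjusted p = 0.000758). Aspm, a spindle pole protein, fell in SI IL-25+ cells (-2.53 ± 0.46, adjusted p = 0.00121). Anln, which encodes the cytokinesis protein anillin, rose in GB IL-25+ cells (5.07 ± 0.40, adjusted p = 1.59e-06), with 144 to 229 CPM there and 3.57 to 6.79 CPM in GB IL-25- cells. Hjurp, the chaperone of Cenpa, was lower in gallbladder in IL-25+ (-1.93 ± 0.16, adjusted p = 5.8e-06) and IL-25- cells (-1.64 ± 0.16, adjusted p = 1.58e-05).

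Within the wider replication list, Pold3, a subunit of DNA polymerase delta that also serves repair, rose in SI IL-25+ cells (1.29 ± 0.22, adjusted p = 0.000934), and Dut, which removes dUTP, fell there (-3.07 ± 0.59, adjusted p = 0.00187). Pole, the catalytic subunit of polymerase epsilon, fell in GB IL-25+ cells (-2.46 ± 0.45, adjusted p = 0.0013). The same gene was higher in gallbladder among IL-25- cells (1.78 ± 0.44, adjusted p = 0.01), against the 14 that were lower. Gins3, a partner of Gins2, rose in SI IL-25+ cells (2.97 ± 0.93, adjusted p = 0.0307), a call lost without SI IL-25+ 3, or SI IL-25- 2 or 3, and without SI IL-25- 3 and GB IL-25- 1 together (adjusted p 0.00364 to 0.119 over its alternatives). Gmnn, geminin, the inhibitor of Cdt1, was lower in gallbladder among IL-25+ cells (-1.84 ± 0.49, adjusted p = 0.0152).

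Regulators of G1 phase act before the 39 genes and were called in both directions between the gates. Ccnd1 stood at 80.6, 106 and 89.7 CPM in GB IL-25+ libraries 1 to 3 and at 1327, 995 and 1031 CPM in GB IL-25- libraries. It stood at 26.2, 10.1 and 4.99 CPM in SI IL-25+ libraries and at 248, 83.0 and 197 CPM in SI IL-25- libraries. Cyclin D1, which activates CDK4 and CDK6, fell in IL-25+ cells of gallbladder (-3.60 ± 0.56, adjusted p = 0.000713) and small intestine (-3.68 ± 0.57, adjusted p = 0.000656). Gallbladder was higher than small intestine in both gates (2.74 ± 0.54, adjusted p = 0.00395, in IL-25+ and 2.67 ± 0.54, adjusted p = 0.00432, in IL-25- cells), against the direction of the 39 genes. Cdk2 stood at 44.6, 33.8 and 48.9 CPM in GB IL-25+ libraries 1 to 3 and at 8.86, 10.6 and 6.79 CPM in GB IL-25- libraries. It stood at 98.7, 133 and 129 CPM in SI IL-25+ libraries and at 27.1, 7.28 and 19.8 CPM in SI IL-25- libraries. The CDK2 gene rose in IL-25+ cells of gallbladder (2.28 ± 0.39, adjusted p = 0.000875) and small intestine (2.74 ± 0.40, adjusted p = 0.000256). Of 18 tested G1 cyclins, CDKs and E2F genes, 2 rose and 5 fell in GB IL-25+ cells and 1 rose and 8 fell in SI IL-25+ cells, against 12.4% and 14.4% of all genes in gallbladder and 14.5% and 12.8% in small intestine. Myc fell in SI IL-25+ cells (-3.41 ± 0.56, adjusted p = 0.000634). Ccnd2, another D-type cyclin, fell in GB IL-25+ cells (-5.98 ± 0.78, adjusted p = 0.000156) and was lower in gallbladder in IL-25+ (-6.30 ± 0.79, adjusted p = 0.00016) and IL-25- cells (-4.13 ± 0.65, adjusted p = 0.000727). It had only 7, 5 and 4 counts in GB IL-25+ libraries 1 to 3, near the floor of 3 counts. In GB IL-25- libraries Ccnd2 spread from 3.31 to 20.5 CPM. Without SI IL-25+ 1 Ccnd1 was -4.55 between the small intestine gates and 3.61 between tissues in IL-25+ cells, and Ccnd2 was -5.63. Without GB IL-25- 1 Ccnd2 was -5.07 between the gallbladder gates and -5.01 between tissues in IL-25- cells.

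The last list held CDK inhibitors, retinoblastoma-family genes, Lin9, Lin37, Lin54, Btg1 and Btg2. Of its 14 tested genes, 6 were higher in SI IL-25+ cells and none was lower, against 14.5% and 12.8% of all genes. In gallbladder 2 rose and 2 fell, near the 12.4% and 14.4% of all genes. Cdkn1b stood at 143, 186 and 147 CPM in GB IL-25+ libraries 1 to 3 and at 22.7, 38.6 and 36.5 CPM in GB IL-25- libraries. It stood at 93.4, 78.0 and 95.3 CPM in SI IL-25+ libraries and at 43.3, 42.7 and 55.0 CPM in SI IL-25- libraries. Cdkn1b, which encodes the CDK inhibitor p27, rose in IL-25+ cells of gallbladder (2.28 ± 0.24, adjusted p = 1.56e-05) and small intestine (0.92 ± 0.23, adjusted p = 0.00955), with no overlap in either. Rb1 stood at 79.8, 118 and 112 CPM in GB IL-25+ libraries 1 to 3 and at 26.2, 24.9 and 37.5 CPM in GB IL-25- libraries. It stood at 158, 161.5 and 128 CPM in SI IL-25+ libraries and at 79.0, 89.9 and 77.8 CPM in SI IL-25- libraries. Rb1, the retinoblastoma gene, did likewise (1.81 ± 0.22, adjusted p = 6.28e-05, in gallbladder and 0.86 ± 0.22, adjusted p = 0.0106, in small intestine). Btg2, an anti-proliferative gene, rose in SI IL-25+ cells (0.98 ± 0.19, adjusted p = 0.00165) and fell in GB IL-25+ cells (-1.95 ± 0.19, adjusted p = 9.01e-06). Cdkn1a, the p21 gene, was lower in gallbladder among IL-25+ cells (-1.72 ± 0.35, adjusted p = 0.00326). Beside the 6 of 14, leaving out 1 library gave 3 to 6.

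**Figure D5:**
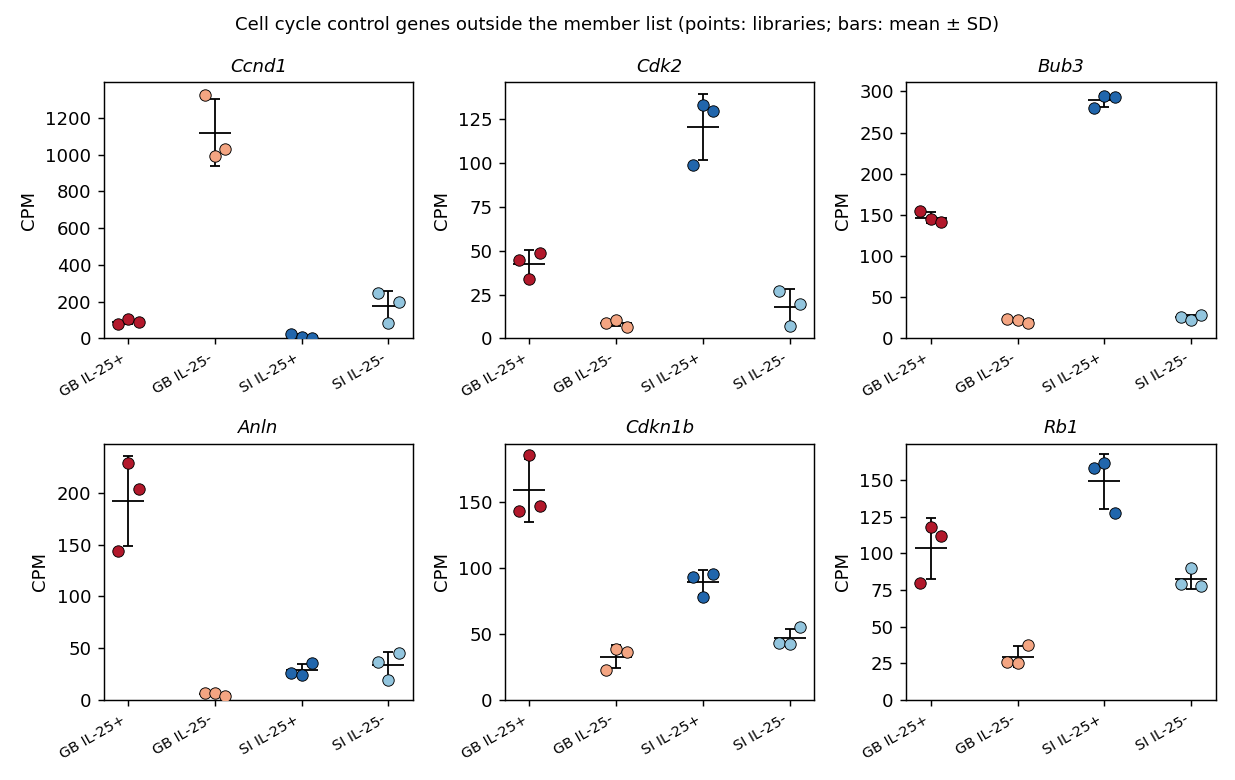
CPM of 6 cell cycle genes outside the 39, by group, with points for libraries and bars for mean ± SD. Ccnd1 is lower and Cdk2, Bub3, Cdkn1b and Rb1 are higher in IL-25+ than in IL-25- cells of each tissue, and Anln stands apart in GB IL-25+ cells.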

How the data were processed

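The authors deposited one table of raw read counts per gene, with STAR 2.7.2b and DESeq2 1.26 named and GRCm38 as the build, per the submitters' processing notes. The read counter, strand setting and annotation release are not given in the sources used here. Libraries were made with Nextera XT and read as single-end 50-base reads, per the labels' protocols. The table lists 43432 genes, of which 42548 matched GENCODE M21 (names and GRCm38 positions) and 884 did not. Its 12 columns named for the samples were used, and 11 further columns that match no sample label were not. No 2 libraries of the same group agreed within sampling noise (lowest chi-square per degree of freedom 49.16), and libraries of different groups were not compared in this way. Totals of 23703449 to 64736650 counts set the precision: 3 counts, the floor used here, correspond to 0.0421 to 0.122 CPM per library, which covers counting error only.

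From these counts, edgeR 4.0.16 in R 4.3.3 filtered genes (filterByExpr, minimum count 10, leaving 16636), scaled libraries by TMM and fitted a robust quasi-likelihood model with 1 term per group over all 12 libraries. SE is the absolute log2 fold change divided by the square root of F. P-values were adjusted by Benjamini-Hochberg over all genes in each comparison, with a threshold of 0.05. The script was tested on simulated data of 16636 genes with 50 changed genes per fold, where calls recovered 0% at 2-fold, 24% at 4-fold, 86% at 8-fold and 100% at 16-fold. The changed genes were drawn from genes above a cutoff on mean CPM, and every simulated gene had the same median spread. These rates therefore do not carry over to members with low counts or a wide spread. Alternatives were RLE size factors, DESeq2 1.42.0, other filters on low counts, a replicate block, the compared groups alone, each library left out, and SI IL-25- 3 and GB IL-25- 1 left out together. Figures were drawn with matplotlib 3.10.9.

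The 39 genes, the wider lists, the marker lists and the tests were chosen with earlier results of these data known. All 39 are named, with values in every library for genes called in at least 1 comparison or averaging 10 CPM or more in a group. From the 4 wider lists the text names some of the genes among the 3 lowest adjusted p per comparison and some called against the majority of their list. Calls against the majority that it does not describe include Rpa2, Pold3, E2f6, Prc1, Dlgap5 and Kif2c between the gallbladder gates. Between tissues they include Orc3 and Btg2 in IL-25- cells and Anln and Cdkn1b in IL-25+ cells. Reads of 9 of the 39 genes may include those of an overlapping gene on the opposite strand, and 4 (Pcna, Tyms, Ccnb1 and Ccnb2) have processed pseudogenes.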

Additional observations from a re-analysis of the deposited data

Results flagged for a closer look

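None of the 39 genes was called different between tissues in its gate effect by the interaction test, and 6 genes of the wider lists were. Called more positive were 1 of 44 replication, 3 of 55 mitosis and 0 of 18 G1 genes. Of the 14 tested genes of the list with CDK inhibitors, retinoblastoma-family, Lin and Btg genes, 1 was called more positive. The share over all genes was 3.63%. Of those 14, 1 was called more negative and none of the other lists was, against 5.6% of all genes. Counts this small are no result about the lists. Values are the log2 fold change between gates in gallbladder minus that in small intestine, with adjusted p from edgeR's quasi-likelihood test. Anln, the cytokinesis gene, had an interaction of 5.31 ± 0.50 (adjusted p = 5.8e-05), Dut, which removes dUTP, one of 3.78 ± 0.80 (adjusted p = 0.00954) and Ncapd2, a condensin subunit, one of 2.89 ± 0.54 (adjusted p = 0.00461). Btg2, an anti-proliferative gene, had an interaction of -2.93 ± 0.27 (adjusted p = 4.29e-05), since it fell in gallbladder and rose in small intestine IL-25+ cells. These 4 calls held under all alternatives run for them. Arhgap11a had one of 1.55 ± 0.43 (adjusted p = 0.0406). Its call was lost without any one of 10 of the 12 libraries, the exceptions being GB IL-25+ 1 and GB IL-25+ 3, with no filter on low counts (adjusted p = 0.0547), with a replicate block (adjusted p = 0.0601) and without SI IL-25- 3 and GB IL-25- 1 together (adjusted p = 0.157, the highest over its alternatives). Cdkn1b, the p27 gene, had one of 1.36 ± 0.32 (adjusted p = 0.0176), a call lost without SI IL-25+ 2, without SI IL-25- 3 and without SI IL-25- 3 and GB IL-25- 1 together, where its adjusted p reached 0.0704. Tissue and the HDM AF647 label cannot be told apart in these values.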

How the results depend on the processing

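Of 61 calls among the 39 genes, 28 held under every alternative run for them, 33 were lost under at least 1, and 43 of 134 values that were not called passed under at least 1. No called value reversed its sign under the alternatives run for it. In the small intestine gates 21 genes fell, a count of 32 with the compared groups alone, 12 without SI IL-25- 3 and GB IL-25- 1 together, and 11 to 27 with 1 library left out. In the gallbladder gates 1 gene rose, a count of 0 with the compared groups alone and 0 to 1 with 1 library left out, and 6 fell, a count of 12 with DESeq2, 4 with the compared groups alone, 5 without the pair and 6 to 10 with 1 library left out. Among IL-25+ cells 10 genes were lower in gallbladder, a count of 6 to 12 with 1 library left out. Among IL-25- cells 23 were lower, a count of 13 without the pair and 13 to 27 with 1 library left out. The interaction called 0 genes, with 5 at an unadjusted p under 0.05. More positive effects numbered 3 with DESeq2, 1 without the pair and 0 to 2 with 1 library left out, and more negative ones 0 to 1 with 1 library left out. A fit of the compared groups alone was not run for the interaction.

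Deviations of same-numbered libraries from their group means were weakly correlated (-0.052 to 0.162), and all positive in the gallbladder gates (0.094, 0.019 and 0.162). With 3 libraries per group and no reference from differently numbered libraries, these values cannot decide whether the numbers pair libraries. With a replicate block, 24 genes fell in the small intestine gates, 1 rose and 9 fell in the gallbladder gates, 10 and 22 were lower in gallbladder among IL-25+ and IL-25- cells, and the interaction called 0. The block left uncalled Mcm7 (adjusted p = 0.0611), Gins2 (adjusted p = 0.0844) and Tyms (adjusted p = 0.0537) between tissues in IL-25- cells, Plk1 between the small intestine gates (adjusted p = 0.0502) and Birc5 between tissues in IL-25+ cells (adjusted p = 0.0984). With RLE size factors the all-gene median shifted on the log2 scale by -0.123 in the small intestine gates, 0.119 between tissues in IL-25+ cells and 0.164 in the interaction. The share of more positive effects among interaction calls over all genes was 39.3%, 51.2% with RLE and 51.6% with DESeq2. The cause of these changes was not tested. Low counts limit Ccne1, Ccnb1, Gins2 and Cdk1 in gallbladder, and Ccnd2 of the wider lists in GB IL-25+ cells.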
